A study of Mus musculus with 6 samples.

Results

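The expression of 10 genes listed as heparan sulfate synthesis enzymes was examined in differentiating mouse embryonic stem (ES) cells in which Atad2, which encodes a chromatin-bound ATPase with a bromodomain, was knocked down or left in place. The list held Hs6st1, Hs6st2, Hs2st1, Ext1, Ext2, Extl3, Ndst1, Ndst2, Glce and Sulf1. All probes on the array whose platform annotation gave one of these symbols were taken, which gave 27 probes for 9 of the 10 genes, out of 45281 probes on the array. Ndst1 had no probe under its symbol and was not analysed here. The genes were proposed with the comparison of the hairpins already known, so the differences between the hairpins below describe these arrays and are not evidence for the choice. Sulf1 is on the list although its product acts after synthesis, as described below.

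Both groups were 46C-Atad2-tagged ESCs, a line derived from 1 targeted clone in which the endogenous Atad2 protein carries tags at its C-terminal end. The cells were transduced with a pLKO.1 lentivirus and selected with puromycin as pools, and they were taken 3 days after LIF, the cytokine that holds mouse ES cells in the undifferentiated state, was withdrawn. One group stably expressed an shRNA against Atad2 (shAtad2, 3 arrays) and the other a control shRNA (shCtrl, 3 arrays), which the labels call non-targeting and the methods of the study list as an inactive sequence. Total RNA was read on Illumina MouseWG-6 v2.0 beadchips, which report for every probe the average signal of its beads. Arrays of both groups carry replicate numbers 1 to 3, and no label says that these came from separate cultures, so the spread behind every p-value is that of these 6 samples and may be technical.

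Heparan sulfate is a long sugar chain attached to core proteins at the cell surface and in the matrix. Enzymes of the Golgi first lengthen the chain from alternating glucuronic acid and N-acetylglucosamine, then modify it in steps: N-sulfation of glucosamine, epimerization of glucuronic to iduronic acid, and sulfation at the 2-O position of the uronic acid and the 6-O position of glucosamine. The sulfate pattern sets which FGF, Wnt, BMP and other ligands the chain binds, and mouse ES cells that cannot make or sulfate it are known to be impaired in leaving the pluripotent state.

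Across the series, between 17792 and 18513 probes per array were above background (detection p under 0.05) and the median unnormalized intensity lay between 130.0 and 138.9. A probe was kept when it was above background on at least 3 of the 6 arrays, and a gene was represented by its brightest probe, for 10072 genes in all. Atad2 itself read 5.69, 5.64 and 5.41 in shAtad2, against 6.28, 6.48 and 6.39 in shCtrl, on the normalized log2 scale used throughout, a difference of -0.80 (SE 0.14), and its second probe was above background on no array. The replicate 3 arrays stood apart from the other arrays, at 26.1 (shAtad2) and 26.8 (shCtrl) on a first principal component that held 48.0% of the variance, where the other arrays lay between -15.4 and -11.9. All 10 ES cell and epiblast markers examined were measured. Their mean level ran from 10.54 to 10.65 in shAtad2 and from 10.55 to 10.67 in shCtrl. Between the hairpins, 4 read higher and 6 lower in shAtad2 (median -0.12), with overlapping groups for each. The largest differences, which such a mean does not show, were those of Fgf5 (0.48, SE 0.24), Tdgf1 (-0.41, SE 0.28) and Utf1 (0.34, SE 0.38). The single markers also went opposite ways on the replicate 3 arrays. There Zfp42 (-1.99 in shAtad2 and -1.45 in shCtrl), Esrrb (-1.86 and -1.04) and Pou5f1 (-0.11 and -0.52) lay below the mean of the other arrays of their group. Otx2 (1.08 and 0.57), Utf1 (1.10 and 0.91), Fgf5 (0.61 and 0.61), Dppa5a (0.30 and 0.29) and Tdgf1 (0.19 and 0.88) lay above it. Nanog (0.01 and 0.08) lay near it, and Sox2 (-0.20 and 0.43) lay below it in shAtad2 and above it in shCtrl.

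Of the 27 probes of the heparan sulfate genes, 14 were kept and 13 of these were above background on all 6 arrays. The 14th, the dimmer probe of Ext2, was above background on 1 shAtad2 array and 2 shCtrl arrays. Of the 13 probes left out, 9 were above background on no array and the other 4 on 1 or 2 arrays, with normalized levels between 4.36 and 5.74. No difference is given for them.

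The enzymes that add sulfate at the 6-O and 2-O positions read higher in shAtad2, the epimerase read lower, and the enzymes that build the chain had overlapping groups. By the brightest probe, the 3 shAtad2 arrays lay wholly above the 3 shCtrl arrays for Hs6st1, Hs6st2 and Hs2st1, 3 of the 9 genes measured, where 6.94% of all genes tested did so. Glce was the 1 of 9 whose shAtad2 arrays lay wholly below, where 6.59% of all genes did. As this contrast was known when the list was drawn up, nothing is read from these counts. By limma, 0 of the 9 genes passed the adjusted threshold, which 0% of the 10072 genes passed in either direction. An unadjusted p under 0.05 was found for Hs6st1 and Hs2st1 among the genes higher in shAtad2 (4.12% of all genes) and for Glce among those lower (3.80%). With the replicate number as a block the same 3 genes had one, and the shares of all genes were 6.54% and 6.90%. The smallest adjusted p among the 9 was 0.310 for Hs6st1, and 0.0927 with that block. In the fit with that block 0.0199% of all genes passed as higher and 0.0794% as lower, none of them one of the 9. All 3 pairs of same-numbered arrays were higher in shAtad2 for 4 of the 9 genes (17.2% of all genes), the 3 above and Sulf1, and lower for 1, Glce (17.4%). The median difference of the 9 genes was 0.07, and that of all genes tested was -0.00121.

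**Figure D1:**
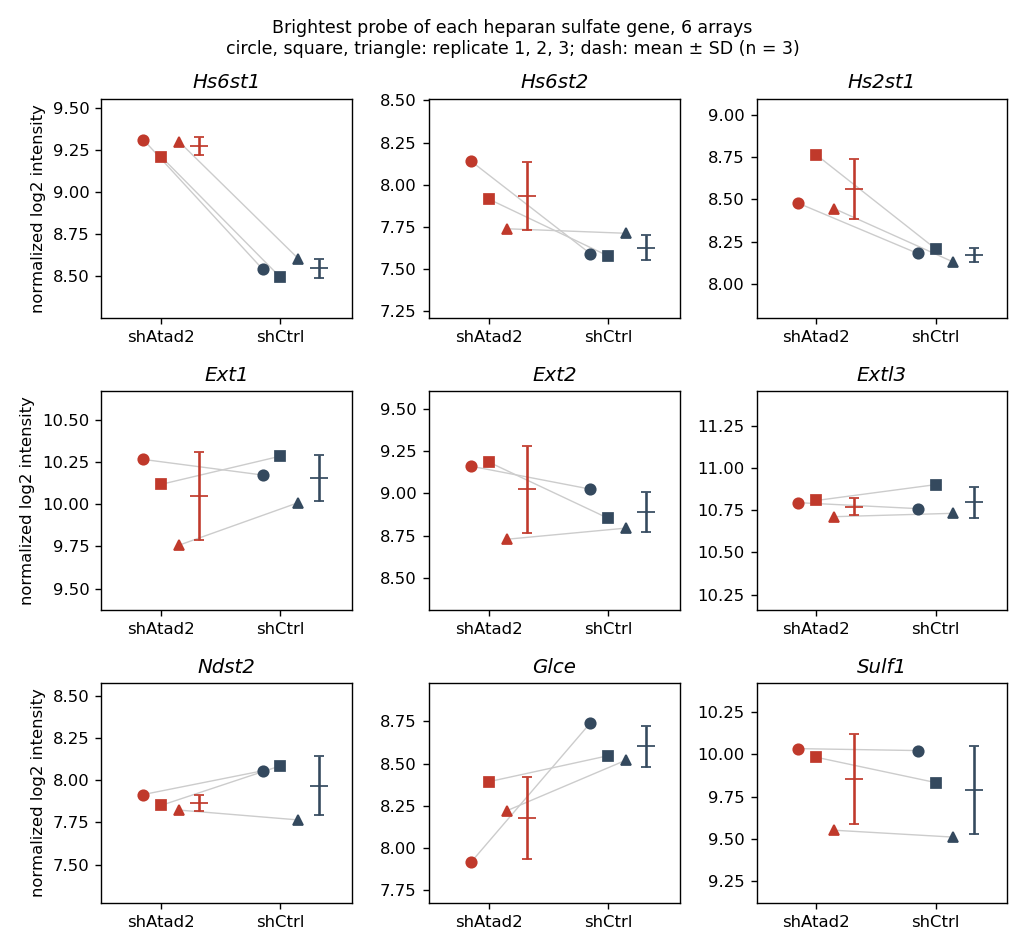
Normalized log2 intensity (y axis, each panel spanning the same range) of the brightest probe of the 9 measured genes on the shAtad2 and shCtrl arrays, with symbols for the replicate numbers, grey lines joining arrays of the same number and dashes for the mean ± SD (n = 3). The groups are apart for Hs6st1 (9.27 in shAtad2, 8.55 in shCtrl), Hs6st2, Hs2st1 and Glce, and overlap in the other 5 panels.

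Hs6st1, the first of the 6-O-sulfotransferases, showed the largest difference of the 9 genes. Its probe ILMN_3158500 read 9.31, 9.21 and 9.30 in shAtad2, against 8.54, 8.49 and 8.61 in shCtrl. The lowest shAtad2 array thus lay well above the highest shCtrl array, and the spread within each group was small (SD 0.06 in both). The mean difference was 0.73 (SE 0.12), or 1.65-fold, and it was nearly the same in each pair of arrays with one replicate number, at 0.77, 0.72 and 0.69. Before normalization the same probe read 742, 663 and 770 in shAtad2, and 511, 466 and 479 in shCtrl. Of all genes tested, 0.705% had a positive difference at least as large. The replicate 3 arrays, which stood apart over the whole array, did not stand apart here, differing from the mean of the other arrays of the group by 0.04 in shAtad2 and 0.09 in shCtrl. A second Hs6st1 probe, ILMN_3079255, was not above background on any array, so that the difference rests on 1 probe.

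The 250 bases before the start of Hs6st1 are shown beside those of Hs2st1 and Glce, the other genes with separate groups and a single start in the RefSeq table, since these are the promoters of the genes on which the comparison turns. They are given 5′ to 3′ on the strand of the gene, in the GRCm38.p6 build, at chr1:36068150-36068399 (plus strand) for Hs6st1, chr3:144570217-144570466 (minus strand) for Hs2st1 and chr9:62122610-62122859 (minus strand) for Glce. Capitals mark every match to the GC box GGGCGG on either strand, the short motif bound by Sp1 and related factors.
Hs6st1: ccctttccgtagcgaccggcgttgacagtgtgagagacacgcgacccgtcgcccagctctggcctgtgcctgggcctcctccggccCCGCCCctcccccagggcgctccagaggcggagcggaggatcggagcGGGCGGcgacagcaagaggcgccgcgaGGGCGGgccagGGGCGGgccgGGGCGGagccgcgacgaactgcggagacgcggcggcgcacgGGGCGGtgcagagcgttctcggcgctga
Hs2st1: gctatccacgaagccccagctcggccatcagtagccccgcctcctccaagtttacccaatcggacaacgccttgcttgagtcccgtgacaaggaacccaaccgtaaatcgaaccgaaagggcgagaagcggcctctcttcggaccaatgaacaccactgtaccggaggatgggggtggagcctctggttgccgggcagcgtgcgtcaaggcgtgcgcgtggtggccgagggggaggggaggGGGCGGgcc
Glce: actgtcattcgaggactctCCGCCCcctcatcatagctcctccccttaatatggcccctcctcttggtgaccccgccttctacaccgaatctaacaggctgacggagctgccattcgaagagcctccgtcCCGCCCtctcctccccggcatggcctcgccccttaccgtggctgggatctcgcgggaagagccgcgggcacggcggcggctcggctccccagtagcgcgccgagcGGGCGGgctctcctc
The Hs6st1 window held 6 GC boxes, that of Hs2st1 held 1 and that of Glce held 3, and 32.7% of 32817 promoter windows of this length held at least 1. The Hs6st1 window also held 37 CpG dinucleotides in 250 bases, a number reached by 2.21% of all windows, against 21 in that of Hs2st1, 24 in that of Glce and a median of 6 over all windows. CCAAT, searched on both strands, was matched 2 times before Hs2st1 and 0 times before Hs6st1 and Glce, and was present in 33.8% of all windows. TATAAA, present in 12.4%, and CACGTG, present in 6.02%, had 0 matches in these 3 windows, and the matches to different motifs did not overlap in any of the windows. Windows of 6 of the 10 listed genes were examined, Hs6st2 with 2 starts, after entries on 1 chromosome had been left out. Both windows of Hs6st2, whose groups were also apart, held 0 GC boxes, as did that of Ext2. The window of Ndst2, whose groups overlapped, held 3, as many as that of Glce. These matches are descriptions of sequence alone.

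Hs6st2 encodes the second 6-O-sulfotransferase, and 2 of its 5 probes were above background. The brighter, ILMN_2507473, read 8.14, 7.92 and 7.74 in shAtad2, against 7.59, 7.58 and 7.71 in shCtrl. The groups did not overlap, but the replicate 3 arrays lay only 0.03 apart, where the first pair differed by 0.55 and the second by 0.34. The mean difference was 0.30 (SE 0.15). The other probe, ILMN_2488062, read 6.54, 6.21 and 6.65 in shAtad2, and 6.18, 5.98 and 5.77 in shCtrl, with differences by replicate number of 0.36, 0.22 and 0.88. On that probe the third pair was the one farthest apart, so both probes read higher in shAtad2 in all 3 pairs while disagreeing on the third.

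Hs2st1 encodes the single 2-O-sulfotransferase of heparan sulfate. Its 2 probes were both kept and gave like values. ILMN_2853601 read 8.48, 8.76 and 8.45 in shAtad2, against 8.18, 8.21 and 8.13 in shCtrl, a mean difference of 0.39 (SE 0.14), or 1.31-fold. ILMN_2777202 read 8.35, 8.49 and 8.32 in shAtad2, and 8.16, 8.07 and 8.00 in shCtrl, a difference of 0.31. On both probes the groups were apart, and the second pair differed most, by 0.56 and 0.42. Counted by probe, 5 of the 14 kept probes of the list (those of Hs6st1, Hs6st2 and Hs2st1) had all shAtad2 arrays above all shCtrl arrays, where 6.70% of 18085 kept probes did, and 1 of 14 (Glce) had them all below, where 6.23% did. Probes of 1 gene share their target and are not separate evidence.

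Glce encodes the epimerase that turns glucuronic into iduronic acid, the residue on which Hs2st1 mainly acts. It was the 1 enzyme of the list with separate groups that read lower in shAtad2, on probe ILMN_2433946. The 3 shAtad2 arrays read 7.91, 8.39 and 8.22, against 8.74, 8.55 and 8.52 on the shCtrl arrays. The mean difference was -0.43 (SE 0.16), or 1.34-fold lower. It varied more between pairs than that of Hs6st1, at -0.83, -0.15 and -0.30, the first shAtad2 array being the lowest of all 6. The other 2 Glce probes were above background on at most 1 array.

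**Figure D2:**
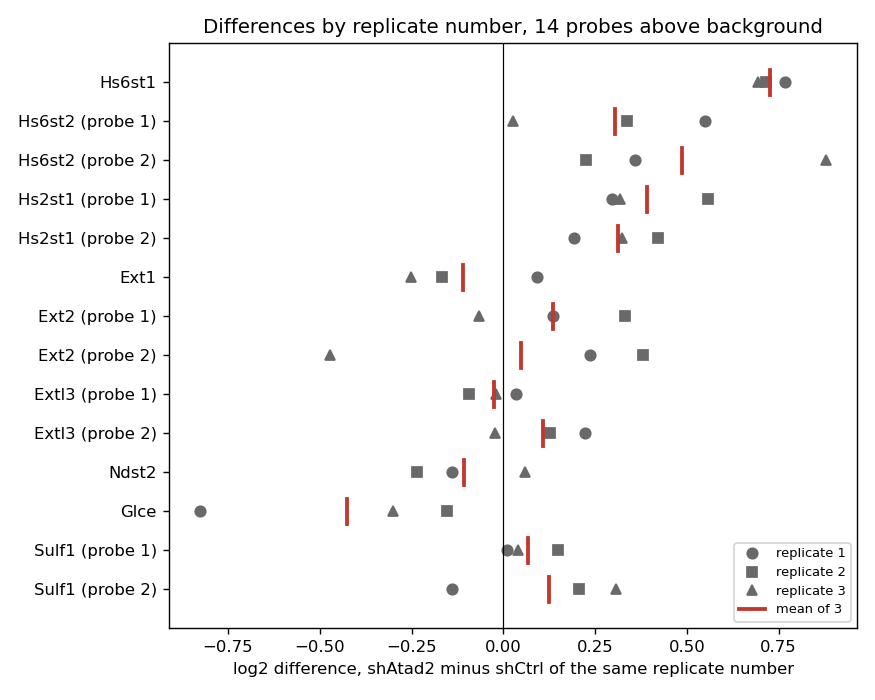
Log2 difference between shAtad2 and shCtrl arrays of the same replicate number (x axis) for the 14 kept probes (rows), with grey symbols for the 3 pairs and a red line for their mean. All 3 pairs lie to the right of 0 for the probes of Hs6st1 (0.69 to 0.77), Hs6st2 and Hs2st1, all lie to the left for Glce, and the other probes except the brighter Sulf1 probe have pairs on both sides.

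Ndst2, an N-deacetylase and N-sulfotransferase that opens the chain to the later steps, read 7.92, 7.85 and 7.82 in shAtad2, against 8.06, 8.09 and 7.76 in shCtrl. The groups overlapped through the third shCtrl array, the lowest of the 6, and the difference was -0.11 (SE 0.14).

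The enzymes of chain building did not separate the groups. Extl3, which adds the first N-acetylglucosamine and so commits the chain to heparan sulfate, read 10.79, 10.81 and 10.71 in shAtad2, against 10.76, 10.90 and 10.73 in shCtrl. Its arrays were the most alike of the list, with a difference of -0.03 (SE 0.13), and its second probe differed by 0.11. Ext1 and Ext2 together form the polymerase that extends the chain. Ext1 read 10.27, 10.12 and 9.76 in shAtad2, against 10.17, 10.29 and 10.01 in shCtrl, a difference of -0.11 (SE 0.17). Ext2 read 9.16, 9.19 and 8.73 in shAtad2, against 9.03, 8.85 and 8.79 in shCtrl, a difference of 0.13 (SE 0.17). For both, the lowest array of each group was the one numbered 3, and the pairs fell on both sides of 0.

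Sulf1 is an extracellular endosulfatase that removes 6-O-sulfate from finished chains and so acts opposite to Hs6st1 and Hs6st2. Its probe ILMN_1222489 read 10.03, 9.98 and 9.55 in shAtad2, against 10.02, 9.83 and 9.51 in shCtrl. The groups overlapped almost wholly, with a difference of 0.07 (SE 0.19), and the second kept probe, ILMN_2501191, differed by 0.12. The spread within each group of Sulf1 came mostly from one replicate number. The replicate 3 arrays lay -0.46 (shAtad2) and -0.42 (shCtrl) from the mean of the other arrays of their group, and -0.26 and -0.53 on the second probe. Sulf2, its sister enzyme, lay -0.43 and -0.54 away on the replicate 3 arrays and differed between the groups by 0.24 (SE 0.21).

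**Figure D3:**
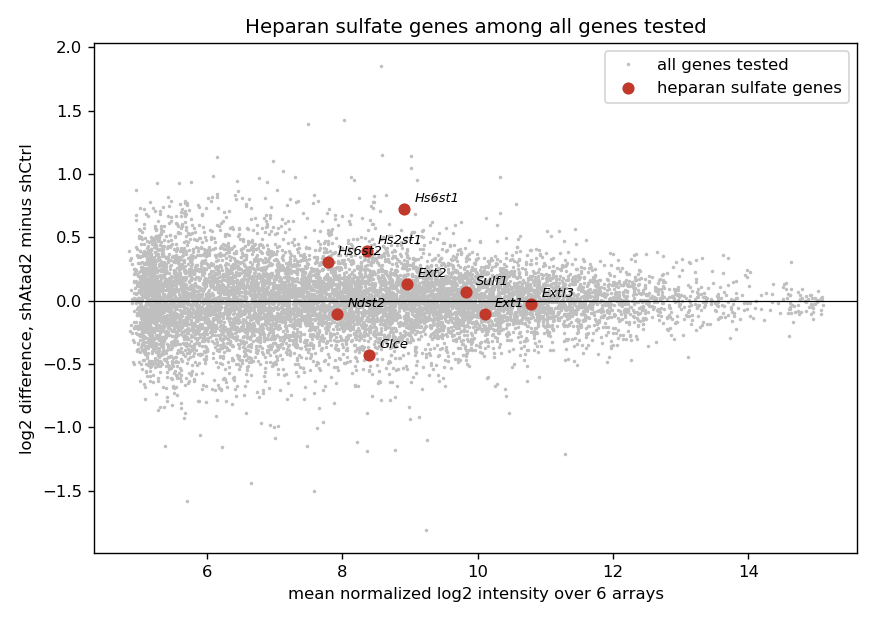
Log2 difference between shAtad2 and shCtrl (y axis) against the mean normalized log2 intensity over the 6 arrays (x axis) for the 10072 genes tested (grey) and the 9 heparan sulfate genes (red). Hs6st1 at 0.73 lies at the upper edge of the genes of like brightness, Glce at -0.43 lies toward the lower edge, and the chain-building genes lie near 0.

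Differences between replicate numbers, a contrast that the rule for the list does not name, were tested for all genes. In the additive limma model of group and replicate number, 0 of the 9 genes passed the moderated F-test of the replicate number (Benjamini-Hochberg over all genes), where 3.56% of all genes did, and 1, Sulf1, had an unadjusted p under 0.05, where 19.7% of all genes did. Its adjusted p was 0.210, and it passed without background correction (adjusted p = 0.0431) and on the authors' processed values (adjusted p = 0.0342). The adjusted p of Hs6st1 was 0.934, that of Glce 0.920 and that of Hs6st2 0.893. Among related genes, Chst7, a chondroitin 6-O-sulfotransferase, passed (adjusted p = 0.0489). So did Hs3st3b1, a gene of heparan sulfate 3-O-sulfation above background on 4 of the 6 arrays (adjusted p = 0.00715). Its replicate 3 arrays lay -1.38 (shAtad2) and -1.66 (shCtrl) from the mean of the other arrays of their group.

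Genes around the listed enzymes were compared in lists compiled from general knowledge. In these lists 0 genes passed the limma test between the hairpins, with or without the replicate block. The groups lay apart, in either direction, for 13.5% of all genes tested. The share was 0% of the measured genes of chain synthesis and remodelling and of the linkage, and 9.09% of those of supply. It was 15.4% for core proteins, 12.5% for chondroitin and dermatan sulfate, 20% for lysosomal breakdown and 50% for FGF receptors and ERK targets. These shares of short lists were not tested. Of 15 other genes of chain synthesis and remodelling, 5 were measured, 3 higher and 2 lower (median difference 0.06). Extl2, a homologue of the chain-building enzymes, differed by -0.03 (SE 0.18). Ndst3, Ndst4, Hs6st3, the heparanase genes Hpse and Hpse2 and 5 of 7 genes of 3-O-sulfation were not among those measured. Of 7 enzymes of the linkage sugar that joins the chain to its core protein, 5 were measured, 1 higher and 4 lower (median -0.16). Pxylp1, a phosphatase that releases the linkage for extension, had the largest difference there at -0.47 (SE 0.32, or 0.16 with the replicate block). Its groups overlapped, with differences by replicate number of -0.87, -0.31 and -0.24. The kinase that opposes Pxylp1, Fam20b, differed by -0.17 (SE 0.14). B4galt7, which adds the first galactose of the linkage, differed by -0.16 (SE 0.19).

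Of 16 genes that supply sugar nucleotides and activated sulfate, 11 were measured, 3 higher and 8 lower (median -0.02). Slc35b2, a carrier of the sulfate donor PAPS into the Golgi, read 9.04, 8.84 and 8.54 in shAtad2, against 9.31, 9.67 and 9.15 in shCtrl. The groups did not overlap, and the difference of -0.57 (SE 0.19) ran opposite to those of the 6-O- and 2-O-sulfotransferase genes. Slc35b3, in the same list, differed by -0.08 (SE 0.15) with overlapping groups. Ugp2, which makes UDP-glucose, differed by -0.35 (SE 0.30). Bpnt2, which clears the spent donor in the Golgi, differed by 0.33 (SE 0.17), and Papss1, which makes the donor, by 0.04 (SE 0.15).

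Of 14 core protein genes, 13 were measured, 6 higher and 7 lower (median -0.01). Sdc3, a syndecan of neural cells, read 6.85, 6.54 and 6.70 in shAtad2, against 6.35, 6.33 and 6.22 in shCtrl, a difference of 0.40 (SE 0.14) with groups apart. Gpc6, a lipid-anchored glypican, also had separate groups, with 6.13, 6.15 and 5.70 in shAtad2 and 5.29, 5.67 and 4.96 in shCtrl. It passed the detection threshold on 5 of the 6 arrays. Sdc1, the syndecan of epithelia, differed by -0.37 (SE 0.18), and Tgfbr3, the betaglycan core protein, by -0.30 (SE 0.22). Agrn, Hspg2 and Gpc3, which carry the chain in the matrix or at the membrane, lay between -0.06 and 0.05.

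Of 16 genes for chondroitin and dermatan sulfate, the sister chains built on the same linkage, 8 were measured, 6 higher and 2 lower (median 0.03). Chst3, which sulfates chondroitin at the 6-O position, read 6.16, 5.84 and 5.57 in shAtad2, against 5.25, 5.29 and 5.26 in shCtrl, a difference of 0.59 (SE 0.17) with groups apart. Chst7 ran the other way, with 7.25, 7.44 and 6.60 in shAtad2, against 8.07, 8.21 and 6.51 in shCtrl. The difference was -0.50 (SE 0.45, or 0.20 with the replicate block) with overlapping groups. Chpf, a chondroitin polymerizing factor, differed by 0.10 (SE 0.18). Of 9 genes of lysosomal breakdown, 5 were measured, 4 higher and 1 lower (median 0.14), and Hgsnat differed by 0.21 (SE 0.12), the glucuronidase gene Gusb by 0.17 (SE 0.16) and the iduronate sulfatase gene Ids by -0.16 (SE 0.17).

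Among 13 FGF receptor and ERK target genes, which lie downstream of the ligands that the chain binds, 8 were measured, 5 higher and 3 lower (median 0.13). Fgfr2 read 8.28, 8.09 and 7.80 in shAtad2, against 7.62, 7.30 and 7.70 in shCtrl, a difference of 0.52 (SE 0.18). Spred1, an inhibitor of the ERK cascade, differed by 0.45 (SE 0.15), and Spry4, another inhibitor and an ERK target, by -0.23 (SE 0.18). Dusp6 and Etv5, further targets, differed by -0.09 (SE 0.20) and 0.12 (SE 0.12). The 4 genes with groups apart, all higher in shAtad2, were Fgfr2, Spred1, Etv5 and Egr1. Egr1 differed by only 0.15 (SE 0.13), and by 0.02 between the replicate 2 arrays.

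**Figure D4:**
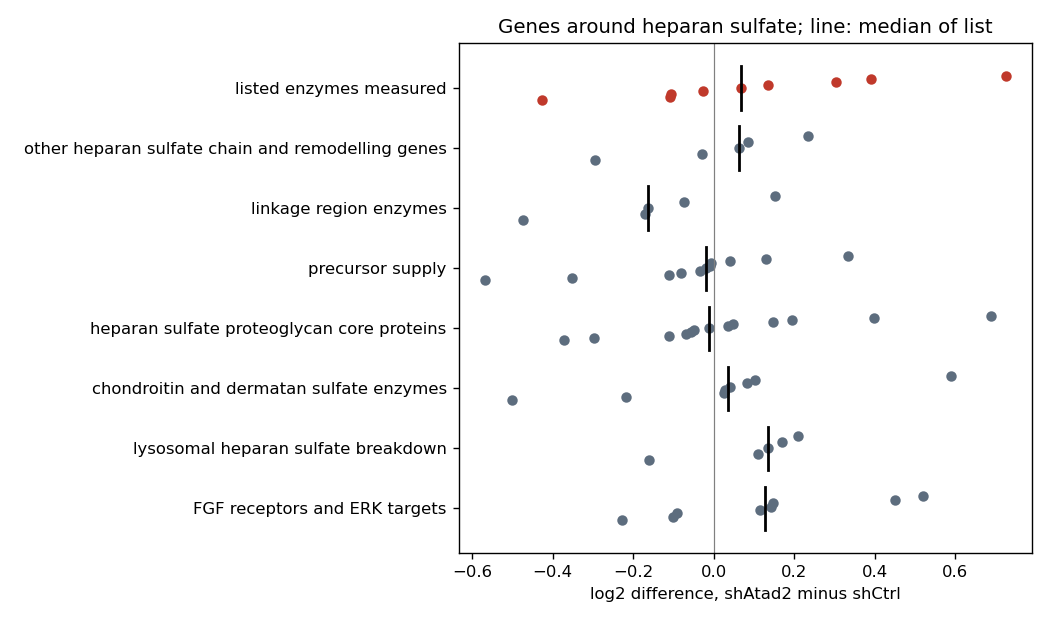
Log2 difference between shAtad2 and shCtrl (x axis) of each measured gene in 8 lists (rows), the listed enzymes in red, with a black line at the median of each list. Medians lie between -0.16 (linkage region) and 0.14 (lysosomal breakdown), and the single genes spread to both sides in every list.

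Markers of other cell types were read beside these genes, and 0 of them passed the limma test between the hairpins, as did 0% of all genes. With the replicate block 1 gene each of the neurectoderm (Ncam1), mesoderm (Mixl1) and trophectoderm (Cdx2) lists passed, among the 10 of all 10072 genes that did. All 4 measured neurectoderm markers of 6 read higher in shAtad2, by 1.85 (En1, SE 1.08), 1.42 (Ncam1, SE 0.35), 1.02 (En2, SE 0.26) and 0.60 (Nes, SE 0.13). Sox1 and Pax6 were not above the filter. The groups overlapped for En1, whose lowest shAtad2 array read 7.95 and highest shCtrl array 8.95. The mean level of the 4 markers lay between 7.83 and 8.91 on the shAtad2 arrays and between 6.49 and 7.77 on the shCtrl arrays. Of 6 mesoderm markers 5 read lower (median -0.86), among them Evx1 (-1.81, SE 0.97) and Eomes (-0.28, SE 0.35). The groups overlapped for every one of these markers. Their level averaged 5.62 to 8.06 in shAtad2 and 6.52 to 8.94 in shCtrl. All 4 measured trophectoderm markers of 5 read lower, among them Cdx2 (-1.19, SE 1.12), Krt8 (-0.39, SE 0.16) and Krt18 (-0.37, SE 0.25). Of these 4 markers, only Krt8 had groups apart. Their mean level was 7.38 to 8.38 in shAtad2 and 7.98 to 9.00 in shCtrl. On the replicate 3 arrays the median marker lay -2.77 (shAtad2) and -2.70 (shCtrl) from the other arrays of its group for mesoderm, -0.98 and -0.57 for neurectoderm and -0.44 and -0.70 for trophectoderm. Of 6 endoderm markers 2 were measured, Dab2 at 0.04 (SE 0.25) and Gata6 at -0.98 (SE 0.87), with Gata4, Sox17, Foxa2 and Afp not above the filter. Of 6 fibroblast markers 2 were measured, Thy1 at 0.22 (SE 0.40) and Dcn at 0.78 (SE 0.25), with Col1a1, Col1a2, Postn and Lum not above it. The groups overlapped for these endoderm and fibroblast markers. The part of these cell types in the values of the heparan sulfate genes was not tested. In RNA from whole cultures, fewer cells of a type and less RNA per cell cannot be told apart.

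The genes most like Hs6st1 and Glce across the 6 arrays were found by Pearson's r over 8520 named genes above background on all arrays. The highest r with Hs6st1 were those of Hdac7 (0.991), Pdzd4 (0.990), Nes (0.990), Soga3 (0.987) and Efna5 (0.987), and all of these read higher in shAtad2, by 0.44 to 0.81. The lowest were those of Hspb8 (-0.995), Nkiras2 (-0.995), Mtus1 (-0.993), Atp6v0e (-0.992) and Mcat (-0.991), all lower in shAtad2. With Glce the highest were Slc30a2 (0.994), Dctd, Eif2s3x (both 0.991), Trip10 (0.987) and Wdr92 (0.983), and the lowest Dmtf1 (-0.990), Map4k4 (-0.984), Zfp532 (-0.982), Ccdc6 (-0.981) and Vars2 (-0.975). An r of at least 0.9 in size was held by 2.96% of the genes for Hs6st1 and 1.28% for Glce. These are descriptions over 6 arrays of 2 groups, picked from many genes. As the values of Hs6st1 fall into 2 levels by group, the directions of the genes most like and unlike it follow from its own. Hs6st1 and Glce, whose groups lay apart in opposite directions, had an r of -0.84.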

How the data were processed

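Arrays of 3 shAtad2 and 3 shCtrl samples were analysed, grouped and numbered by their titles. The deposited files hold, for each array, unnormalized intensity and a detection p-value for every probe, and a table of processed intensity. The scanner software, background treatment and normalization are not given in the sources used here. All columns of the processed table had a median of 141.1 and kept the rank order of the unnormalized values, as quantile normalization leaves them, and it served as an alternative. Background was removed by normexp fitted through the detection p-values (offset 16), followed by quantile normalization and log2, as neqc of limma 3.58.1 (R 4.3.3) does. The offset and remaining background understate changes of dim probes. Symbols of 34885 probes with 1 gene were updated through Entrez identifiers for 34807, with the GRCm38.p6 gene table used for names only, while 2585 probes that passed the filter lacked one symbol and were not tested.

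Genes were compared with limma's lmFit and eBayes (two-sided, threshold 0.05 after Benjamini-Hochberg adjustment) over 10072 genes. Each SE is that of the fit without the replicate block unless said otherwise, so it includes the spread between replicate numbers. The model was tested on simulated data with independent normal noise and larger changes than those of the listed enzymes, so smaller changes were not covered. Same-numbered arrays of both groups deviated together from their group means, with r of 0.30, 0.29 and 0.58, all above the preset 0.1. The numbers were used as pairs on that rule. Crossed numbers correlated as strongly for shAtad2 1 with shCtrl 2 (0.30) and shAtad2 2 with shCtrl 1 (0.34). Replicate 3 alone stood apart. In deviations from a mean of 3 arrays, a replicate 3 array that stands apart moves the other arrays together. The r of numbers 1 and 2 thus cannot show that these were pairs, and agreement between their differences is a description. The blocked fit is given where it moves a count. Named were all listed enzymes, in each related list the 3 genes with the largest difference among those above background on all 6 arrays, and the 5 most and least similar genes. Other genes of the lists, among them Gpc6, Hs3st3b1, Slc35b3, Papss1, Agrn, Hspg2, Gpc3, Dusp6, Etv5, Egr1 and several markers, were picked with their values in view. The members and lists were chosen with earlier results of these data known. Promoter windows are from RefSeq. The number of arrays limits the precision.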

Additional observations from a re-analysis of the deposited data

How the results depend on the processing

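Of 17 alternatives, 12 change the values themselves, and under these the differences of Hs6st1 (0.57 to 0.76), Hs6st2 (0.20 to 0.44), Hs2st1 (0.28 to 0.45) and Glce (-0.54 to -0.30) kept their direction, as did those of Ext2 and Ndst2, and 106 of 108 values moved by less than the spread between replicates. The exceptions were Hs6st1 without background correction (0.59) and on the authors' processed values (0.57). The direction turned for Ext1 without shAtad2 3 (0.04), for Extl3 without shAtad2 3 (0.00392) or shCtrl 2 (0.02), and for Sulf1 without shAtad2 1 (-0.02) or shCtrl 3 (-0.07). The 4 genes with separate groups were the same 4 under the 5 of these that keep all arrays. All 4 also stayed apart when arrays were left out and the rest normalized again, but with fewer arrays groups overlap less readily. They were joined by Ext2 without shAtad2 3, by Ndst2 without shCtrl 3, and by Ext2 and Ndst2 without the replicate 3 arrays of both groups. The last of these fits was added after seeing the data.

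Between the hairpins, 0 of the 9 genes passed in any alternative. Over all genes 1 passed without background correction, with an offset of 50, on the authors' processed values and with trended and robust variance, 10 with the replicate block and 12 without the replicate 3 arrays of both groups, and 0 in each fit that left out a single array. For the replicate number, 359 genes passed, against 758 without background correction, 883 with an offset of 50, 757 on the processed values, 981 with trended and robust variance, 174 without a filter and 0 without the replicate 3 arrays of both groups, and 141 (without shAtad2 3) to 789 (without shCtrl 1) with single arrays left out, 154 without shCtrl 3 and 565 without shCtrl 2. Of the 9 genes, 1 (Sulf1) passed that test without background correction and 1 on the processed values. The causes were not tested. A slide block was not run, as no slide is named.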
